A study of Macaca mulatta and Mus musculus and Rattus norvegicus with 12 samples.

Results

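The matrix metalloproteinases (MMP), the secreted ADAMTS proteases, the tissue inhibitors of metalloproteinases (TIMP) and the serine protease FAP were followed in bone of the calvaria (the flat roof of the skull) and the tibia of mouse, rat and rhesus macaque. Members were chosen by symbol alone: every row whose symbol began with MMP, ADAMTS or TIMP followed directly by a digit, together with FAP. The rule found 47 symbols of 38599 in mouse, 46 of 35259 in rat and 38 of 28641 in macaque, and 51 symbols in any species, of which 34 were listed in all 3. Reads were counted on 41 of the mouse members, 38 of the rat members and 29 of the macaque members, and the other 6, 8 and 9 had none in any library. In macaque, TIMP1 and TIMP2 were printed as TIMP-1 and TIMP-2 and TIMP4 under a locus number, so that they fell outside the rule, and their values are given beside the members.

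Poly(A)+ RNA was sequenced from bone that had been stripped of periosteum, scraped, treated briefly with collagenase and pulverised to enrich for osteocytes, the cells buried in bone matrix. The mouse libraries (C57BL6, 4 months) were calvaria M4 and M8 and tibia M5 and M7, each pooled from 3 animals. The rat libraries (Wistar, 6 months) were calvaria R1 and tibia R3, each pooled from 2 animals, and the macaque libraries were calvaria G1, G3 and T1 and tibia G2, G4 and T2, each from 1 animal. All animals were female according to the methods, and no treatment or genetic change was applied to any group. The labels give the macaque ages as 4 to 6 months and the methods give the same figures in years. The methods describe skull and long bone as paired, but the pairs were not named. Macaque bone was cut with a saw, and marrow was spun out of the rodent tibias only.

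MMPs and ADAMTS proteases are zinc enzymes that cut collagens, proteoglycans and other proteins outside the cell, and most are made as inactive precursors. TIMPs bind the active zinc site of these enzymes and block it, whereas FAP is a membrane serine protease best known from activated fibroblasts and the stroma of healing or diseased tissue. In bone, MMP13 and MMP14 are known products of osteoblasts and osteocytes, MMP9 is abundant in osteoclasts and MMP8 is stored in the granules of neutrophils.

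The active sites of the members that carry the comparisons are shown as mouse coding sequence, since the zinc-binding signature (His-Glu, His and His at fixed spacing around a Gly) was found in most of the MMP and ADAMTS genes and not in FAP or the TIMPs. Sequences and positions are from GENCODE vM21 on GRCm38 and run 5′ to 3′ on the coding strand. Capitals mark the codons of the 3 zinc-binding His residues and of the catalytic Glu, or, for FAP, of the catalytic Ser.
MMP8: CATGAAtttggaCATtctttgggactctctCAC
MMP9: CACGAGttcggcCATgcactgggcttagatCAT
MMP13: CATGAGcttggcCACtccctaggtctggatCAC
MMP14: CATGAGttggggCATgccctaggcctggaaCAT
MMP2: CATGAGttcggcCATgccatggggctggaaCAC
ADAMTS5: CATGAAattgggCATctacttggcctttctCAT
ADAMTS6: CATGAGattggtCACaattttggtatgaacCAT
ADAMTS17: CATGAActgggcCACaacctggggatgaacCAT
ADAMTS18: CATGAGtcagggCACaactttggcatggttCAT
FAP: ggctggTCCtacgga
The MMP stretches each lay in 1 exon, at chr9:7563086-7563118 (Mmp8), chr2:164951133-164951165 (Mmp9), chr9:7276573-7276605 (Mmp13), chr14:54437627-54437659 (Mmp14) and chr8:92839279-92839311 (Mmp2), all on the plus strand. The ADAMTS and FAP stretches were each split by an intron and lay between chr16:85878015-85887826 (Adamts5, minus strand), chr13:104352847-104366809 (Adamts6, plus), chr7:66968898-67002473 (Adamts17, plus), chr8:113767168-113771052 (Adamts18, minus) and chr2:62504597-62512391 (Fap, minus). By this signature of 33 bases, 69 of 21562 mouse protein-coding genes (0.32%) were found, among them 36 of the 42 Mmp and Adamts genes and none of the 4 Timp genes. The 6 that did not match this exact pattern were Adamts1, Adamts4, Adamts8, Adamts9, Adamts15 and Adamts20. The pattern required the Gly too, so a missing match does not mean that the zinc-binding residues are absent.

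Reads on named genes numbered 13934813 to 16826535 in the mouse libraries, 12233256 to 14255423 in rat and 7951585 to 10342459 in macaque. Mouse and macaque were each tested with edgeR's quasi-likelihood test on the raw counts of all genes with a read. Genes with a Benjamini-Hochberg false discovery rate (FDR) under 0.2 that changed by more than 1.1-fold were called. Both limits follow the methods of the study, which also removed genes lacking reads in any 1 library. That filter was used here only as an alternative. With only genes read in every mouse library, 0 mouse members were called. Log2 fold changes are calvaria over tibia throughout, and negative ones mean a higher level in tibia, while normalized CPM are reads scaled to a common library size with TMM factors. Osteocyte markers were present but uneven: the summed level of 6 markers was 1041 to 1847 normalized CPM in mouse calvaria and 7623 to 10369 in mouse tibia, and in macaque, with 3 of the 6 listed under locus numbers that RefSeq names, it was 4917 to 5779 in calvaria and 7777 to 17530 in tibia. SOST, the osteocyte product that restrains bone formation, was called higher in tibia in both (log2 fold change -2.84, SE 0.32, in mouse and -1.53, SE 0.23, in macaque). MEPE made up most of the macaque sum (mean 5084 normalized CPM in calvaria and 13432 in tibia) and was called higher in tibia. In macaque DMP1 (-0.21, SE 0.19), PHEX (0.21, SE 0.24), PDPN (-0.35, SE 0.29) and FGF23 (-1.37, SE 1.14) were not called. In such bulk samples fewer cells of a type and less RNA per cell cannot be told apart. The rodent libraries ran on sequencing lane 3 and those of macaque on lane 4, so that species, lane, genome and annotation cannot be told apart either.

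In mouse 3 of 41 members were called, ADAMTS6, ADAMTS18 and TIMP4, and all were higher in tibia, where 1.57% of the 22339 genes tested were called. No member was called higher in calvaria, where 0.712% of all genes were. At an unadjusted p under 0.05 edgeR had 5 members higher in calvaria and 5 in tibia, and DESeq2 called 3 members, none of them higher in calvaria. In macaque 6 of 29 members were called, 3 higher in calvaria (MMP1, MMP8 and MMP9), where 10.3% of the 18894 genes tested were called, and 3 higher in tibia (FAP, ADAMTS5 and ADAMTS17), where 9.43% were. The macaque members were thus called about as often as other genes. With library size alone the split was 3 to 7, and that scaling moved the median log2 fold change of all macaque genes by -0.20. The share of all genes called with it is not given here, so this split does not show a shift particular to the members. In rat, which has 1 library a site and hence no test, 7 of 38 members passed a log2 ratio of 2 in size, 6 of them higher in tibia, where 8.14% of all genes passed, and MMP25 higher in calvaria, where 1.55% did. The rat tibia was also higher in muscle markers, which summed to 7.44 CPM in calvaria and 843 in tibia with 7 of 7 past the threshold, and in osteocyte markers, which summed to 500.2 and 7242 with 4 of 6 past it. The part of muscle and osteocytes in the rat members' values was not tested. With TMM factors in rat, which moved every log2 ratio by 0.29, the split was 2 to 2. The share of all rat genes past the threshold with these factors is not given here. The median log2 fold change of the members was 0.26 in mouse, -0.00 in macaque and -0.68 in rat, beside 0.05, 0.03 and -0.29 over all genes tested.

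FAP had the largest difference among the macaque members with reads in every library. FAP cleaves peptides after proline and degrades partly digested collagen, and lies on mouse chromosome 2 (chr2:62500943-62574075). It measured 10.9, 10.4 and 12.1 normalized CPM in macaque calvaria G1, G3 and T1, and 54.6, 58.8 and 80.6 in tibia G2, G4 and T2. Every tibia therefore stood far above every calvaria, and the mean was 5.80-fold higher in tibia (64.6 ± 14.0 against 11.1 ± 0.887, SD, n = 3 each). The log2 fold change was -2.54 (SE 0.23, edgeR adjusted p = 1.58e-10), and it stayed between -2.73 and -2.34 and called in all 22 settings tried, including the fits without each library.

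Mouse and rat did not show a difference of that size in FAP. In mouse it measured 343 normalized CPM in calvaria M4 and 130.2 in calvaria M8, beside 269 and 247 in tibia M5 and M7, so that the calvariae lay on either side of both tibias (log2 fold change -0.12, SE 0.36, edgeR adjusted p = 0.941). Without M4 the FAP log2 fold change was -1.01 and without M8 it was 0.40, each called, but 34.4% of all mouse genes were called without M4 and 17.6% without M8, against 2.28% with both. In rat FAP had 52 reads in calvaria and 72 in tibia, a log2 ratio of -0.68 with a 95% exact counting interval from -1.23 to -0.16, which became -0.39 with TMM factors. A test of the site effect in macaque against that in mouse, fitted over both species' 10 libraries, gave a log2 difference of -2.40 for FAP (SE 0.47, edgeR adjusted p = 0.0519). Of the 27 members in that test FAP alone was called, and 5.65% of the 8196 genes were. On simulated data 30.6% of the calls of this test were unchanged genes, above the FDR limit of 0.2. Without M4 the FAP difference was -1.55 (edgeR adjusted p = 0.0211), and it lost its call without M5 (adjusted p = 0.25) or without M7 (adjusted p = 0.217).

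**Figure D1:**
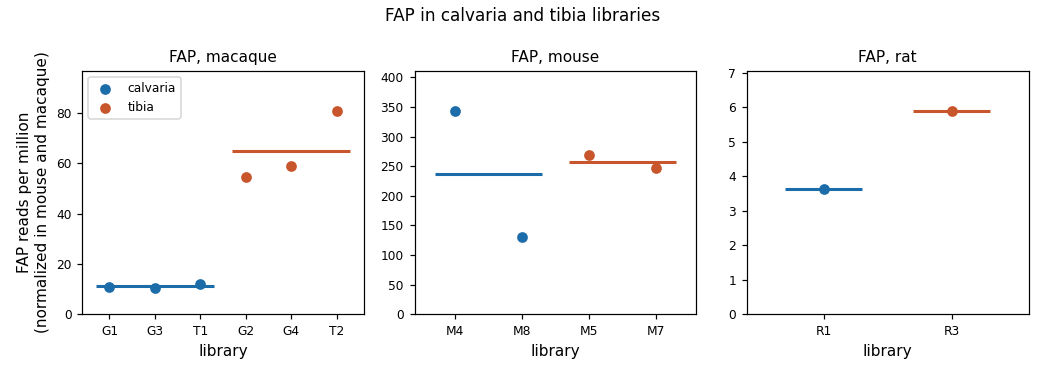
FAP in each library (x axis), in normalized CPM for macaque and mouse and in CPM for rat (y axis, starting at 0 and scaled for each species). Points are libraries, blue for calvaria and orange for tibia, and lines are site means. The macaque sites do not overlap, the mouse calvariae M4 and M8 lie above and below both tibias, and rat has 1 library a site.

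Fibroblast and periosteum markers moved with FAP only in part. Of 6 such markers 5 had reads in macaque, with DPT and TNXB listed under locus numbers, and CLEC3B had none. Their summed level was 101 to 165 normalized CPM in calvaria and 142 to 211 in tibia, which overlapped. POSTN, a matrix protein of periosteum, was called higher in tibia (log2 fold change -2.14, SE 0.27) and TNXB higher in calvaria (0.98, SE 0.39). PDGFRA (-0.61, SE 0.45), DPT (-0.14, SE 0.21) and PI16 (3 reads in calvaria G3, 3 in T1 and none in tibia) were not called. In mouse the same list summed to 676 in M4, 169 in M8, 218 in M5 and 208 in M7, so that M4 was high for the sum as it was for FAP, whereas CLEC3B (log2 fold change -2.27, SE 0.61) and TNXB (-2.80, SE 0.51) were called higher in mouse tibia. The part of such cells in the FAP difference was not tested.

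Among the collagenases, which cut fibrillar collagen, MMP8 was higher in macaque calvaria. It measured 17.1, 14.2 and 32.4 normalized CPM in calvaria G1, G3 and T1 and 8.09, 7.88 and 12.7 in tibia G2, G4 and T2, with a log2 fold change of 1.15 (SE 0.31, edgeR adjusted p = 0.00969). The sites did not overlap, with T1 well above the other calvariae and T2 the highest tibia. All calvariae lay above all tibias in 16.9% of macaque genes with 60 or more reads. Without T1 the MMP8 log2 fold change was 0.71 and no longer called (edgeR adjusted p = 0.227). Mouse MMP8 measured 321 in M4, 860 in M8, 329 in M5 and 393 in M7, so that M8 stood above the other libraries and M4 was the lowest (log2 fold change 0.71, SE 0.37, edgeR adjusted p = 0.69). In rat 63 reads were counted in calvaria and 21 in tibia, a log2 ratio of 1.32 with a 95% counting interval from 0.63 to 2.15.

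MMP13, the main collagenase of rodent bone, was the member with the highest mean level per kilobase in all 3 species. In macaque it measured 2697, 3431 and 1959 normalized CPM in calvaria G1, G3 and T1 and 1084, 1147 and 3741 in tibia G2, G4 and T2. The tibia T2 was the highest library of all, and the sites overlapped (log2 fold change 0.44, SE 0.28, edgeR adjusted p = 0.39). Without T2 the log2 fold change of MMP13 was 1.28 and without T1 it was 0.62, both called, and with the assumed pairs as a replicate block it was 0.69 (edgeR adjusted p = 0.000711). These pairs disagreed: G1 lay above G2 and G3 above G4, but calvaria T1 (1959) lay far below tibia T2 (3741). Mouse MMP13 measured 2307 in M4, 1063 in M8, 698 in M5 and 1039 in M7, and although both calvariae lay above both tibias, M8 did so narrowly (log2 fold change 0.96, SE 0.34, edgeR adjusted p = 0.357). In rat MMP13 had a log2 ratio of -0.43, from 5026 reads in calvaria and 5814 in tibia.

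MMP1, the interstitial collagenase, was called in macaque on very few reads. It had 7, 2 and 1 reads in calvaria G1, G3 and T1 and none in any tibia, which makes it at least 3.83-fold higher in calvaria when the tibias are set to 3 reads over the group (edgeR adjusted p = 0.171). Without G1, the calvaria with most of these reads, MMP1 was not called (edgeR adjusted p = 0.486), nor was it without G3 or without any 1 of the tibias, nor with the replicate block (adjusted p = 0.341).

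The gelatinases MMP2 and MMP9 cut denatured collagen and basement membrane. MMP9 measured 1059, 1273 and 1291 normalized CPM in macaque calvaria G1, G3 and T1 and 537, 315 and 1252 in tibia G2, G4 and T2. The tibias G2 and G4 lay far below the calvariae and T2 lay among them, so that the sites overlapped, and the log2 fold change was 0.78 (SE 0.26, edgeR adjusted p = 0.0473). Without T2 that of MMP9 was 1.51, whereas it fell to 0.74 without G3 and 0.44 without G4, neither called (edgeR adjusted p = 0.433 and 0.283), and DESeq2 did not call it (adjusted p = 0.385). In mouse MMP9 measured 1585 and 1322 in calvaria M4 and M8 and 1268 and 1164 in tibia M5 and M7, close together at both sites (log2 fold change 0.26, SE 0.25, edgeR adjusted p = 0.874). Rat MMP9 had 5883 calvaria reads and 4973 tibia reads, a log2 ratio of 0.02.

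MMP2 was even between the sites in macaque, at 290.2, 251 and 266 normalized CPM in calvaria G1, G3 and T1 and 269, 268 and 368 in tibia G2, G4 and T2 (log2 fold change -0.17, SE 0.18, edgeR adjusted p = 0.644). T2 alone stood out. In mouse MMP2 measured 183 in calvaria M4, while calvaria M8 (54.4) and tibia M5 and M7 (57.6 and 52.0) lay together (log2 fold change 1.12, SE 0.41, edgeR adjusted p = 0.399). The calvaria excess of MMP2 in mouse rested on 1 library, and without M4 its log2 fold change was -0.04.

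**Figure D2:**
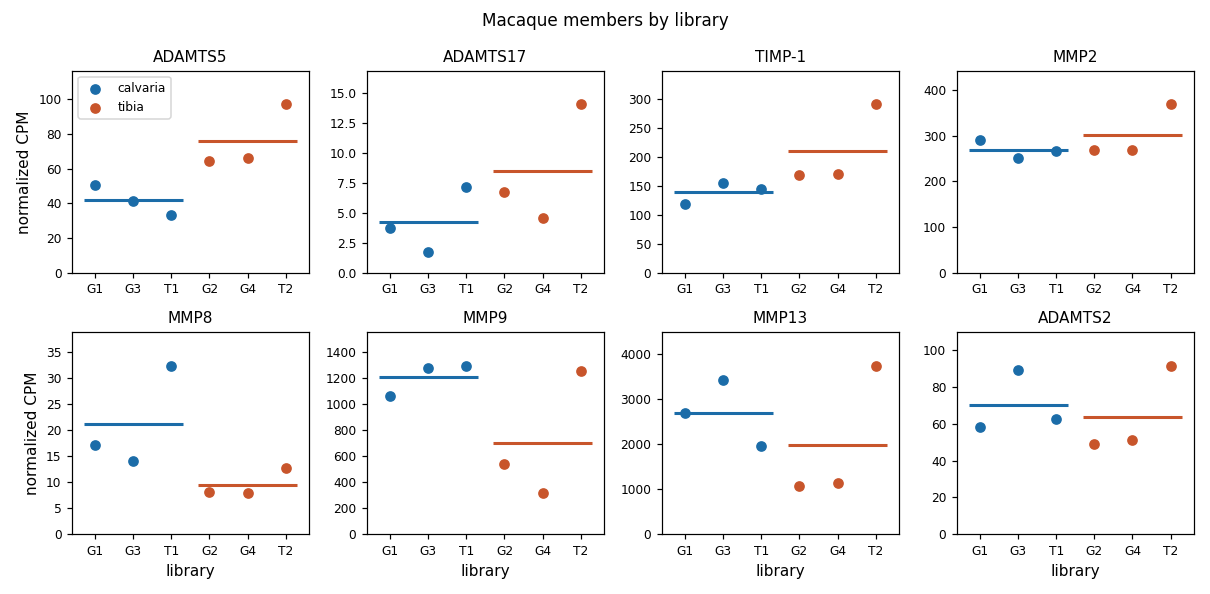
Normalized CPM (y axes, starting at 0, scaled for each gene) of 8 genes in the 6 macaque libraries (x axis), with calvaria in blue, tibia in orange and site means as lines. ADAMTS5, TIMP-1 and MMP8 do not overlap between the sites, and tibia T2 is the highest tibia library in each of the 8 panels.

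Markers of marrow cells and osteoclasts moved with MMP8 and MMP9 in part. The 6 neutrophil markers with reads in macaque, of 9, summed to 35608 to 59189.5 normalized CPM in calvaria and 7034 to 13878 in tibia, and 5 of them were called, all higher in calvaria. ELANE had no reads, and the locus rows that RefSeq names LTF and PRTN3 brought the sums to 36826 to 60801 in calvaria and 7085 to 14227 in tibia. Osteoclast markers, of which 4 of 6 had reads under those symbols, summed to 250, 267 and 332 in calvaria G1, G3 and T1 and to 122, 107 and 323 in tibia G2, G4 and T2. T2 was thus high for the osteoclast sum and for MMP9, but not for the neutrophil sum. ACP5 made up most of the osteoclast sum, with a mean of 260 normalized CPM in calvaria and 167 in tibia. In mouse the neutrophil list summed to 91426 in M4, 123267 in M8, 56548 in M5 and 64320 in M7, and M8 was the highest for these markers and for MMP8. Calvaria M4 lay above both tibias for this sum and was the lowest library for MMP8 (321). S100A8 and S100A9 made up most of the mouse sum, with means of 36018 and 57585 normalized CPM in calvaria and 18569 and 32858 in tibia. For ELANE, LTF, LCN2, PRTN3 and CSF3R the mouse sites overlapped, and M4 was the lowest library, as for MMP8. The part of these cells in the MMP8 and MMP9 values was not tested.

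**Figure D3:**
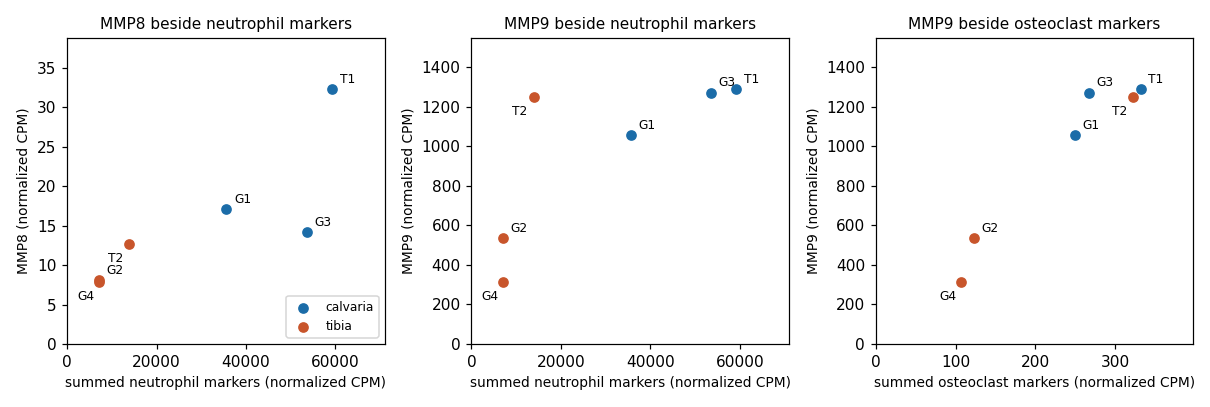
MMP8 and MMP9 (y axes, normalized CPM) against the summed level of neutrophil or osteoclast markers (x axes, normalized CPM) in the 6 macaque libraries, calvaria in blue and tibia in orange. Tibia T2 lies with the calvariae in MMP9 (1252) and in the osteoclast sum (323) and with the tibias in the neutrophil sum (13878).

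Of the membrane-type MMPs, MMP14 activates MMP2 and cuts collagen at the cell surface. Mouse MMP14 measured 1860 normalized CPM in calvaria M4 and 436 in calvaria M8, the highest and the lowest of the 4 libraries, beside 741 in M5 and 808 in M7 (log2 fold change 0.57, SE 0.45, edgeR adjusted p = 0.87). Its log2 fold change was -0.85 without M4 and 1.26 without M8, each called in a fit that called 34.4% and 17.6% of all mouse genes. In macaque MMP14 was low and overlapped, at 15.0, 24.6 and 13.6 in calvaria G1, G3 and T1 and 21.8, 23.3 and 14.8 in tibia G2, G4 and T2 (log2 fold change -0.17, SE 0.27, edgeR adjusted p = 0.751). In rat MMP14 had 1395 reads in calvaria and 5756 in tibia, a log2 ratio of -2.26 with a 95% counting interval from -2.35 to -2.18, which became -1.98 with TMM factors, short of the threshold. Of the other membrane-type members MMP15, MMP16, MMP17 and MMP25 were tested in mouse and MMP16 and MMP25 in macaque, and none was called, while MMP24 had no reads in either species and MMP15 and MMP17 none in macaque. In rat MMP15 passed the threshold (8 reads in calvaria and 35 in tibia), and so did MMP25 on 4 reads in calvaria and none in tibia. MMP3, a stromelysin, passed it in rat too (3 reads in calvaria and 16 in tibia), and the remaining stromelysins, matrilysins and other MMPs were not called in mouse or macaque.

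ADAMTS5, one of the main enzymes that cut the cartilage proteoglycan aggrecan, was higher in macaque tibia. It measured 50.6, 41.4 and 33.6 normalized CPM in calvaria G1, G3 and T1 and 64.6, 65.9 and 97.0 in tibia G2, G4 and T2, and no tibia overlapped a calvaria. The log2 fold change was -0.86 (SE 0.21, edgeR adjusted p = 0.00425), and ADAMTS5 stayed called without any 1 library, at -0.63 without T2. In mouse both tibias lay above both calvariae too, at 82.5 and 66.9 in M5 and M7 and 58.8 and 62.2 in M4 and M8, but the difference was small and not called (log2 fold change -0.30, SE 0.26, edgeR adjusted p = 0.874), and in rat ADAMTS5 had 32 and 31 reads. The other proteoglycan-cutting members were not called. ADAMTS9 came closest, with every tibia above every calvaria in both species: 31.7 and 16.4 against 53.0 and 37.3 in mouse, and 6.03, 6.77 and 5.57 against 7.65, 9.47 and 12.6 in macaque (log2 fold changes of -0.91, SE 0.33, and -0.70, SE 0.35; edgeR adjusted p = 0.385 and 0.238). With the replicate block ADAMTS9 was called in macaque (edgeR adjusted p = 0.126). Every tibia also lay above every calvaria in 20.7% of mouse and 17.1% of macaque genes with 60 or more reads. Exons of mouse Adamts9 overlap those of transcripts on the opposite strand, whose reads cannot be told apart in counts made without regard to strand.

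The procollagen N-proteinases ADAMTS2, ADAMTS3 and ADAMTS14, which trim the ends of new collagen, were not called in mouse or macaque. ADAMTS3 had the largest mouse difference among them, with 14.6 normalized CPM in M4, 4.72 in M8, 2.88 in M5 and 3.97 in M7 (log2 fold change 1.50, SE 0.51, edgeR adjusted p = 0.313), and again M4 alone was high. In macaque its log2 fold change was -0.00 (SE 0.35). ADAMTS14 had 29 reads in rat calvaria and 118 in rat tibia, a log2 ratio of -2.21.

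ADAMTS6 was the member with the smallest adjusted p in mouse. It is a protease linked to microfibrils and focal adhesions, and lies at chr13:104287835-104496695. It measured 5.95 and 6.63 normalized CPM in calvaria M4 and M8 and 17.1 and 17.6 in tibia M5 and M7. The libraries of each site lay close together and far from the other site, and the mean was 2.76-fold higher in tibia (log2 fold change -1.46, SE 0.33, edgeR adjusted p = 0.0568). In macaque ADAMTS6 lay at 9.89, 12.4 and 6.54 in calvaria G1, G3 and T1 and 14.5, 14.4 and 11.5 in tibia G2, G4 and T2, with an overlap of G3 and T2 (log2 fold change -0.48, SE 0.31, edgeR adjusted p = 0.396). In rat 15 reads were counted in calvaria and 41 in tibia, a log2 ratio of -1.61 with a 95% counting interval from -2.63 to -0.79.

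ADAMTS18 and ADAMTS17 are less well understood members of the family, and inherited defects of both affect the eye. Mouse ADAMTS18 measured 4.93 and 2.59 normalized CPM in calvaria M4 and M8 and 13.5 and 8.62 in tibia M5 and M7, without overlap (log2 fold change -1.55, SE 0.44, edgeR adjusted p = 0.163). The call of ADAMTS18 was lost with library size alone (edgeR adjusted p = 0.213) and with a replicate block under either assumed pairing of the mouse libraries (0.234 and 0.275). In rat ADAMTS18 had 27 and 55 reads, a log2 ratio of -1.22, and in macaque, where it was listed under a locus number, its log2 fold change was -0.19 (SE 0.50). Macaque ADAMTS17 measured 3.74, 1.76 and 7.15 in calvaria G1, G3 and T1 and 6.78, 4.57 and 14.1 in tibia G2, G4 and T2. Calvaria T1 lay above tibia G2 and G4, and the log2 fold change of -1.01 (SE 0.44, edgeR adjusted p = 0.16) lost its call without G1, without G3 and without T2, where it was -0.42. Within each assumed pair the calvaria was the lower (3.74 in G1 and 6.78 in G2, 1.76 in G3 and 4.57 in G4, 7.15 in T1 and 14.1 in T2), and with these pairs as a replicate block ADAMTS17 was called at -1.04 (SE 0.34, edgeR adjusted p = 0.018). In rat ADAMTS17 had 10 reads in calvaria and 116 in tibia, a log2 ratio of -3.63 with a 95% counting interval from -4.85 to -2.83, the largest of any rat member. Mouse ADAMTS17 showed no such difference (log2 fold change -0.21, SE 0.62).

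The 3 mouse calls rested on few libraries and on the genes admitted to the test. Without M5 or without M7 no member was called, whereas 21 were called without M4 (3 in calvaria and 18 in tibia) and 24 without M8 (17 and 7), in fits that called 34.4% and 17.6% of all mouse genes. With edgeR's own filter on low counts, or with only genes read in every library, 0 members and 29 and 14 of all mouse genes were called.

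**Figure D4:**
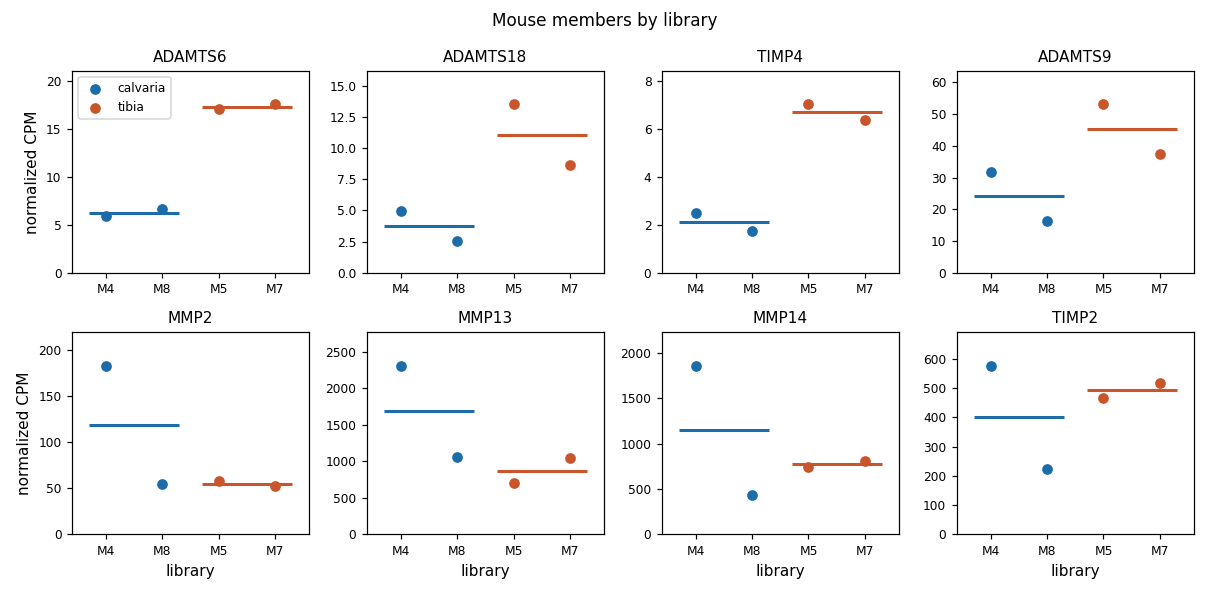
Normalized CPM (y axes, starting at 0, scaled for each gene) of 8 members in the 4 mouse libraries (x axis), with calvaria in blue, tibia in orange and site means as lines. In the upper row both tibias lie above both calvariae, and in the lower row calvaria M4 is the highest library for MMP2 (183), MMP13 (2307), MMP14 (1860) and TIMP2 (576).

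The inhibitors differed among themselves. TIMP4, the member of the family with the narrowest tissue range, measured 2.50 and 1.75 normalized CPM in mouse calvaria M4 and M8 and 7.01 and 6.36 in tibia M5 and M7, a mean 3.13-fold higher in tibia without overlap (log2 fold change -1.65, SE 0.47, edgeR adjusted p = 0.169). With a replicate block under either assumed pairing of the mouse libraries TIMP4 was not called (edgeR adjusted p = 0.366 and 0.280). In rat TIMP4 had 25 reads in calvaria and 89 in tibia, a log2 ratio of -2.01 with a 95% counting interval from -2.75 to -1.40, which became -1.72 with TMM factors. In macaque the row under a locus number that RefSeq names TIMP4 went the other way, at 11.7, 19.9 and 10.9 in calvaria G1, G3 and T1 and 4.15, 6.96 and 9.22 in tibia G2, G4 and T2 (log2 fold change 1.06, SE 0.34, edgeR adjusted p = 0.0376). The sites of macaque did not overlap, and the difference between species was not tested for TIMP4. Exons of mouse Timp4 and of Syn2 on the opposite strand share bases.

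The summed level of adipocyte markers took the same direction as TIMP4 in each species, and FABP4 made up most of each sum. Their summed level was 505 and 196 normalized CPM in mouse calvaria M4 and M8 and 1085 and 941 in tibia M5 and M7, and 4 of the 5 markers were called higher in tibia. In macaque 3 markers had reads under those symbols, all called higher in calvaria, and they summed to 1902, 2548 and 1679 in G1, G3 and T1 and to 717, 681 and 1435 in G2, G4 and T2. The locus row that RefSeq names PLIN1 was near 0 in every macaque library and CIDEC had no reads. FABP4 alone had a mean of 2037 normalized CPM in macaque calvaria and 943 in tibia, and of 340 and 947 in mouse. In rat the list summed to 107 CPM in calvaria and 184 in tibia, of which FABP4 held 95.1 and 163. Rat LEP went the other way (log2 ratio 0.42), and only PLIN1 passed the threshold, on 1 read in calvaria and 10 in tibia. The part of adipocytes in the TIMP4 values was not tested.

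TIMP1, a broad inhibitor of MMPs, was higher in macaque tibia in the row printed as TIMP-1. It measured 119, 156 and 146 normalized CPM in calvaria G1, G3 and T1 and 169, 171 and 291 in tibia G2, G4 and T2, without overlap but with T2 far above the rest (log2 fold change -0.58, SE 0.20, edgeR adjusted p = 0.053). Without T2 the value for TIMP-1 was -0.27 and not called (edgeR adjusted p = 0.375), and the call was also lost without G1 or without G3. In mouse TIMP1 measured 89.8 in M4, 27.7 in M8, 44.0 in M5 and 36.7 in M7 (log2 fold change 0.54, SE 0.41, edgeR adjusted p = 0.86), and in rat it had 333 and 634 reads, a log2 ratio of -1.15.

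TIMP2, which also takes part in the activation of MMP2, and TIMP3, which binds to the matrix, were not called in either species. TIMP2 measured 576 in M4, 224 in M8, 467 in M5 and 518 in M7 in mouse (log2 fold change -0.30, SE 0.36), and the macaque row TIMP-2 was even (0.03, SE 0.27). TIMP3 measured 678, 350.4, 492 and 514 in the same order of mouse libraries (log2 fold change 0.03, SE 0.30), and -0.48 (SE 0.31) was its log2 fold change in macaque. In rat the log2 ratios were -0.998 for TIMP2 and -0.60 for TIMP3, from 1773 and 3040 reads and from 5001 and 6516. Mouse Timp3 shares exonic bases with Syn3 on the opposite strand.

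Members were unevenly spread over the libraries within a site. Of the 33 mouse members with 60 or more reads in all, 20 (60.6%) were highest in calvaria M4 and 18 (54.5%) lowest in calvaria M8, against 26.6% and 34.7% of the 14577 genes with as many reads. M4 exceeded M8 by more than 2-fold in 16 of these members (48.5%, against 13.6% of all genes), and the 2 calvariae lay on either side of both tibias in 13 (39.4%, against 28.8%). The tibias M5 and M7 were more than 2-fold apart, in either direction, in 3 of these members (9.09%, against 3.66% of all genes). In macaque 11 of 20 such members (55%) were highest in tibia T2, against 16.2% of 12088 genes. Markers of other cells also set these libraries apart: osteoblast markers summed to 24717 in M4 and 11064 in M8, with 10379 to 16828 in the mouse tibias, and to 59921 in T2 and 44028 in T1, with 24002 and 24786 in calvaria G3 and G1 and 16723 and 17241 in tibia G4 and G2. Osteoclast markers summed to 2491 in M4 and to 1094 to 1353 in the other mouse libraries. The part of these cells was not tested. Sites without overlap were common among genes with 60 or more reads. All tibias lay above all calvariae in 6 mouse members (18.2%, against 20.7% of all genes) and 3 macaque members (15%, against 17.1%). All calvariae lay above all tibias in 7 mouse members (21.2%, against 20.1%) and 1 macaque member (5%, against 16.9%).

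No member was called with the same sign in both tested species, and none had an unadjusted p under 0.05 in both (edgeR; with DESeq2 the count was also 0). With library size alone 1 was, ADAMTS6, and among the fits without 1 library 3 were without M4 (ADAMTS17, FAP and MMP8) and 2 without M8 (ADAMTS5 and MMP9). Of 26 members with reads in all 3 species, 5 had a lower value in calvaria in each (ADAMTS5, ADAMTS6, ADAMTS17, FAP and MMP3) and 5 a higher value in each (ADAMTS7, MMP8, MMP9, MMP16 and MMP25). The rat values here are scaled by library size alone, and with TMM factors, as used for mouse and macaque, ADAMTS5 (0.11 in rat) left the lower list, ADAMTS2 (0.18) joined the higher one, and the counts were 4 and 6. MMP3 had 3 reads over all macaque libraries, and MMP25 had 4 in macaque and 4 in rat. The share of all genes with the same sign in all 3 species, or called in both tested species, was not worked out. These counts of sign are a description, since most of the values did not pass a test.

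**Figure D5:**
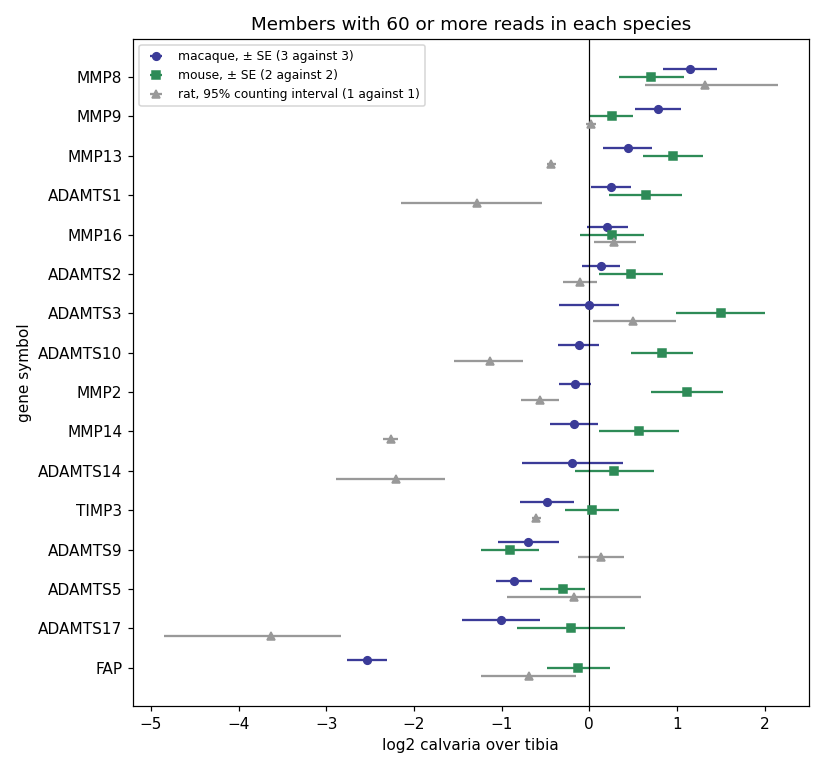
Log2 of calvaria over tibia (x axis) for the 16 members with at least 60 reads in each species (y axis), with bars of 1 SE for macaque and mouse and of the 95% counting interval for rat, which has 1 library a site. FAP lies at -2.54 in macaque, apart from mouse (-0.12) and rat (-0.68), and MMP8 lies above 0 in each species.

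Compared per kilobase of exon, a few proteases made up most of the members' RNA. In mouse MMP13 (mean 477 normalized CPM per kilobase), MMP9 (393) and MMP14 (370.1) led, followed by MMP8, TIMP2, TIMP3 and FAP (88.1). The leading 3 did not separate, with library values of 261 to 863, 343 to 467 and 168 to 716. In macaque MMP13 (827) and MMP9 (407) led, with library values of 382 to 1319 and 134 to 550.4 that overlapped, and TIMP-1 (224) and MMP2 (76.4) came next, while FAP lay at 14.1 and MMP14 at 5.03. The 3 leading members by the rule held 93.5% of the members' summed level per kilobase in macaque calvaria and 89.4% in tibia, and 66.5% and 60.7% in mouse. The macaque sums leave out TIMP-1 (179 in calvaria and 269 in tibia), TIMP-2 and TIMP4, whereas the mouse sums hold all TIMPs. These shares therefore do not compare between the species. In rat MMP13 (159 CPM per kilobase), MMP9 (137), MMP14 (116), TIMP2 (112) and TIMP3 (97.6) led. Macaque gene models were short for some members, with 704 bases for TIMP3, so that levels per kilobase in macaque are uncertain.

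Other genes of the pathway were read from lists fixed by name. Of 29 measured regulators of these proteases, 2 were called in mouse, where 2.28% of all genes were called in either direction: PCOLCE2, an enhancer of procollagen processing, was higher in tibia (log2 fold change -1.72, SE 0.39) and SPOCK3, a proteoglycan that restrains membrane-type MMPs, was higher in calvaria on 124 reads in M4 and 7 in M8 with none in tibia. In macaque 11 of 24 were called, 5 higher in calvaria and 6 in tibia, against 19.7% of all genes. Those higher in calvaria included BSG (mean 42.1 against 24.7 normalized CPM, log2 fold change 0.77, SE 0.23), CTSK, SPOCK3 and TFPI2. A2M, a protease trap of plasma (1619 against 2544, log2 fold change -0.65, SE 0.20), HTRA1, PLAT, SERPINE2, THSD4 and TLL1 were higher in tibia. In rat 6 of 27 passed the ratio threshold, all higher in tibia, where 8.14% of all genes passed. Of the membrane-bound ADAM proteases, 0 of 11 were called in mouse by edgeR (0 by DESeq2, 1 at an unadjusted p under 0.05), 2 of 8 in macaque (ADAM15 and ADAM19, both higher in calvaria, where 10.3% of all genes were called) and 2 of 9 passed in rat, both higher in tibia.

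Of the listed matrix substrates, 5 of 19 were called in mouse, 6 of 16 in macaque and 3 of 17 passed in rat, beside 2.28%, 19.7% and 9.69% of all genes. Fibronectin (FN1) was higher in tibia in both tested species, at a log2 fold change of -1.65 (SE 0.34) in mouse and -0.52 (SE 0.19) in macaque. Collagen II (COL2A1), the main collagen of cartilage, was higher in mouse tibia (-3.96, SE 0.57) and in macaque calvaria (1.79, SE 0.56). The other mouse calls were COL3A1, higher in calvaria, and COMP and DCN, higher in tibia, and the other macaque calls were COL4A2, FMOD, LAMA2 and VWF, all higher in tibia. Chondrocyte markers summed to 179 to 379 normalized CPM in mouse calvaria and 723 to 885 in mouse tibia. In macaque the 6 with reads, COL10A1 under a locus number, summed to 65.0 to 115 in calvaria and 113 to 131 in tibia, and HAPLN1, a link protein of cartilage, was called higher in tibia (-2.18, SE 0.28) where COL2A1 was higher in calvaria. Their part in the substrate values was not tested.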

How the data were processed

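The authors prepared random-primed poly(A)+ libraries, mapped the single-end reads with HISAT2 according to the methods (the labels list BWA 0.7.10-r789) and counted them on merged exons with HTSeq, ignoring strand. The deposited values used here are raw counts per gene and library, from before the authors' own filter on genes lacking reads and their normalization. The 12 normalized columns beside them were not used. The macaque G and T libraries came in separate tables with the same rows. Rows without a symbol (0.00261% to 0.0663% of reads) were left out, symbols were capitalised and rows with 1 symbol were summed.

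Counts of all genes with at least 1 read were fitted per species with edgeR 4.0.16 under R 4.3.3 (quasi-likelihood test after TMM scaling, Benjamini-Hochberg adjustment, FDR under 0.2 and fold change over 1.1, without a block for pairs). The SE is the log2 fold change over the square root of F. The interaction used the genes shared by mouse and macaque. The rat ratio used 1 added read, library size and exact binomial intervals, which cover counting error only. Normalized CPM are reads over the TMM-scaled library size. Bounds set a site without reads to 3 reads over the group. Macaque names of locus rows came from RefSeq (names only), and marker lists were summed with such rows as well, a step added after seeing the data. Steps were tested on simulated data with Python 3.11.15 and R. With 200 genes changed by a log2 of 2, unchanged genes made up 15.5% of the mouse calls and 14.4% of the macaque calls. In the interaction fit they made up 30.6%, above the FDR limit of 0.2. Alternatives used DESeq2 1.42.0, other scalings, filters and thresholds, an exonic length offset, replicate blocks and fits without each library; reading TIMP-1 and TIMP-2 as TIMP1 and TIMP2 was chosen after seeing the data.

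Members, lists, tests and the naming rule were chosen with earlier results of these data known. Named members are those called, those past the rat threshold in the direction of such a call, and FAP, MMP2, MMP9, MMP13, MMP14 and the TIMPs in every case; ADAMTS3, ADAMTS9, ADAMTS14, MMP3, MMP15 and MMP25 were chosen after their values were seen. Where macaque pairs were assumed (G1 with G2, G3 with G4, T1 with T2), deviations from the site means correlated across 12088 genes with r of 0.174, 0.261 and 0.431, while the remaining calvaria and tibia combinations had r of -0.324 to 0.0735. Deviations from a site mean sum to 0, so positive values in some combinations force negative ones in others. These r therefore do not establish the pairs. The p-values measure the spread between these libraries. A gene of the regulator list is not reported here.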

Additional observations from a re-analysis of the deposited data

Results flagged for a closer look

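The site effect on FAP differed between macaque and mouse by -2.40 on the log2 scale, macaque minus mouse (edgeR's interaction test, adjusted p = 0.0519 over the genes of both species). All 3 macaque calvariae lay below all 3 tibias in FAP, while the 2 mouse calvariae lay on either side of both tibias. The difference was -1.55 without M4 and -2.93 without M8, and it was no longer called without M5 or without M7. The species were sequenced on separate lanes and counted on separate annotations, which cannot be told apart from species.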

How the results depend on the processing

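The count of mouse members called was 3 in the reported fit. It was 0 with edgeR's filter on low counts, with only genes read in every library, with only symbols of all 3 species and at an FDR under 0.05, 1 with no filter and 1 with a replicate block under either assumed pairing, and it ranged from 0 (without M5 or without M7) to 24 (without M8), with 21 without M4. The lone library then left at a site is assumed to vary like the other site. The number of all mouse genes called was 510 in the reported fit and 360 with no filter. It was 29 with edgeR's filter and 14 with genes read in every library. With symbols of all 3 species it was 20, and at an FDR under 0.05 it was 208. The macaque count of 6 became 10 with library size alone, 3 with DESeq2, 3 at an absolute log2 fold change over 1.1 and 7 with the replicate block, which lost MMP1 and added ADAMTS9 and MMP13, and ranged from 3 (without G3) to 8 (without T2) over the fits without 1 library. The members called in the same direction in both species numbered 0, but 1 with library size alone, and 0 to 3 without 1 library. The rat count of 7 became 3 with 5 reads added, 20 at a threshold of 1, 4 with TMM factors and 3 with the trend over exonic length taken out. The interaction count of 1 became 0 at an FDR under 0.05 and ranged from 0 (without M5 or without M7) to 7 (without M8) without 1 library, with 3 without T2. No log2 fold change called in the reported fit reversed its sign under these settings, but members not called in it did: mouse FAP, MMP14, MMP16, MMP23, ADAMTS1, ADAMTS2, TIMP1 and TIMP3 were called higher in tibia without M4 and higher in calvaria without M8, where 34.4% and 17.6% of all mouse genes were called against 2.28%. The replicate block changed no call of FAP, ADAMTS5, ADAMTS17, MMP8 or MMP9 in macaque or of ADAMTS6 in mouse, and lost those of ADAMTS18 and TIMP4 in mouse. The share of all genes called is not given beside the macaque, rat and interaction counts under these settings. Those counts alone therefore do not show a shift particular to the members. The causes of these shifts were not tested. With 2 mouse libraries a site and none to replicate in rat, small differences in members of few reads were not detectable.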
